A study of Mus musculus with 9 samples.

Results

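Nutrient transporters for sugars and amino acids were taken as the genes whose symbols name the solute carrier families Slc1, Slc2, Slc3, Slc5, Slc6, Slc7, Slc15, Slc16, Slc36, Slc38 and Slc43. The deposited GRO-seq table held 111 such genes of 24505, in 11 families. The largest families were Slc6 with 22 genes, Slc7 with 16 and Slc16 with 14, and the smallest was Slc3 with 2. The names alone chose the genes, so 4 of them are opposite-strand genes or a pseudogene named after a carrier (Slc6a19os, Slc7a6os, Slc36a1os and Slc2a4rg-ps). Of the 111 genes, 90 passed the filter on low values, which asked for at least 2 libraries at a value of log2 of 10 or more, and could be tested. The other 21 stayed below it.

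The study grew mini-guts, which are organoid cultures, from mouse duodenum. Nascent transcription was measured by GRO-seq, a nuclear run-on assay, in 3 cultures with 2 libraries each. They are RANKL, labelled as intestinal M cell, ENRI, labelled as enterocyte, and WENRC, labelled as intestinal stem cell. H3K27me3, the histone mark of Polycomb repression, came from ChIP-seq of RANKL (2 libraries) and WENRC (1 library). The labels give no strain, age, dose or time and do not spell out the culture names. ENRI and WENRC carry mouse numbers 1 and 2, so each mouse gave 1 library of each culture. RANKL 1 and RANKL 2 carry replicate numbers only, and nothing says that they came from separate animals, so the spread between them may be technical.

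Absorptive cells of the small intestine take up sugars, amino acids and small peptides through carriers in the brush border, the apical membrane that faces the gut lumen, and release them to the blood through other carriers in the basolateral membrane. Apical uptake is mostly driven by the sodium or proton gradient, while much basolateral exit runs by facilitated diffusion or exchange. Dividing cells use a partly different set of carriers, which bring in glutamine, serine, leucine and arginine for growth, and several of these are known targets of the amino acid stress factor ATF4 or of MYC. M cells sample particles and microbes from the lumen and are known for a sparse brush border.

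The values below are the authors' normalized log2 values, and a change is a difference of log2 means with its standard error (SE) from limma over 16563 genes. A gene was called where the Benjamini-Hochberg adjusted p (FDR) was under 0.05. The scale compresses low values, so the changes of weakly transcribed genes are understated. Over the 90 carriers, the 2 libraries of a culture differed with an SD of 0.216 for RANKL, 0.504 for WENRC and 0.808 for ENRI. In the marker lists, 10 of 12 M cell markers were higher in RANKL than in ENRI (10.4% of all genes tested). WENRC was lower than ENRI in 10 of 12 enterocyte markers and higher in 8 of 10 stem cell markers (9.74% and 4.85% of all genes tested). RANKL was not free of enterocyte signal. The summed enterocyte markers stood at 14.74 and 14.88 in RANKL on the log2 scale, between 15.85 and 16.65 in ENRI and 13.48 and 12.55 in WENRC. Sis, at 13.79 and 13.82, had the largest part in the RANKL sum, and some single markers had other orders. Of 10 stem cell markers 5 were higher in RANKL than in ENRI, as were 3 of 6 Paneth and 3 of 5 tuft markers. The summed stem cell markers were 14.42 and 14.48 in RANKL, near WENRC at 14.58 and 14.69, but single markers differed. Lgr5 stood at 8.75 and 8.84 in RANKL, 8.89 and 8.51 in ENRI and 11.64 and 11.99 in WENRC. Of the 10, it was the 1 called lower in RANKL than in WENRC (-3.02, limma FDR 0.00166). Tnfrsf19 was the 1 called higher (1.69, limma FDR 0.0129). Both libraries of mouse 1 had low Xist (4.52 in ENRI 1 and 5.42 in WENRC 1) and high Ddx3y (8.50 and 8.29), while in the other 4 libraries Xist was at least 10.90 and Ddx3y at most 3.60. The animals' sex therefore differed between libraries, and this bears on X-linked carriers such as Slc6a8 and Slc7a3.

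The promoters of 6 carriers are shown because their genes carry the main patterns: both Slc6a20 genes, which were high in RANKL and ENRI and had H3K27me3 in WENRC, both Slc5a4 genes and the partner subunit Slc3a1, which differed in where RANKL stood, and Slc1a4 from the growth group. Each runs from 250 bases before to 50 bases after the start site, 5′ to 3′ on the gene's strand, from RefSeq on GRCm38.p6, and capitals mark a motif match.

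Slc6a20a (chr9:123678783-123679082, minus strand): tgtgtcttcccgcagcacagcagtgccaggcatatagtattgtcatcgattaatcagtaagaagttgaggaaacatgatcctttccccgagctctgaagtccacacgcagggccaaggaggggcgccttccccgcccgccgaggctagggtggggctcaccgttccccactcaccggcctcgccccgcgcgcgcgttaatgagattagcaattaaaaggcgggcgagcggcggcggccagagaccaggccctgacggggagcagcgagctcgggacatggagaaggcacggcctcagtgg

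Slc6a20b (chr9:123632489-123632788, minus strand): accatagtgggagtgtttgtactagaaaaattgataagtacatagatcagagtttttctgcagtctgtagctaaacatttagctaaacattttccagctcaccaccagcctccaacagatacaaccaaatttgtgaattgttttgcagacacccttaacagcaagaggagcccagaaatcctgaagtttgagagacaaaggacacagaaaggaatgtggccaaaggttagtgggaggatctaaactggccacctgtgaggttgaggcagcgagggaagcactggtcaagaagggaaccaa

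Slc5a4b (chr10:76110969-76111268, minus strand): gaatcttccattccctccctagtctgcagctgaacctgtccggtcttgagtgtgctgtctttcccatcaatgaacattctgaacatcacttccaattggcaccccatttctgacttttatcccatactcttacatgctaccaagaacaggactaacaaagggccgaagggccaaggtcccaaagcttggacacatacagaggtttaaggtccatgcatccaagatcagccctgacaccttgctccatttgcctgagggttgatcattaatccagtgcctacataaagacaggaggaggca

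Slc5a4a (chr10:76147201-76147500, plus strand): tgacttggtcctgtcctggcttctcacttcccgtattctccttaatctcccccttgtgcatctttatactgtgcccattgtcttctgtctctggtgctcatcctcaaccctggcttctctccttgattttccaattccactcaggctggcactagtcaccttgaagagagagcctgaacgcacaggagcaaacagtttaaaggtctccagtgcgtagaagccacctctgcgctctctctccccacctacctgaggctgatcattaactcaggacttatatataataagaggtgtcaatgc

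Slc3a1 (chr17:85028097-85028396, plus strand): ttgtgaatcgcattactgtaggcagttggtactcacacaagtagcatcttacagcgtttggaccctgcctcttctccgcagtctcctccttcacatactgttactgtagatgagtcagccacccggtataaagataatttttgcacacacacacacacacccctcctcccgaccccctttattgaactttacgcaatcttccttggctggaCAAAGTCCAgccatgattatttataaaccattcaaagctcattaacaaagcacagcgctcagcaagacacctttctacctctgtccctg

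Slc1a4 (chr11:20332664-20332963, minus strand): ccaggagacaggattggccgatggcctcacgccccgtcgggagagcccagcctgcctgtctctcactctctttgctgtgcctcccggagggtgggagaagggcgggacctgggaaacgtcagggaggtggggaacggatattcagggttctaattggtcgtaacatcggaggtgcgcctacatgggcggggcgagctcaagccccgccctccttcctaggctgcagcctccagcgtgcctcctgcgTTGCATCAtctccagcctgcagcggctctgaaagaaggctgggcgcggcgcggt

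Motifs were searched on both strands in the promoters of 81 carriers found in the RefSeq table, and the share over all 27025 genes of that table stands beside each. The HNF4 motif CAAAGTCCA was found in Slc3a1 alone among the carriers (0.555% of all genes). The CDX2 motif TTTATGG was found in Slc2a6 and Slc7a15 (3.21%), and the ATF4 motif TGATGCAA in Slc1a4, Slc7a11 and Slc7a7 (1.03%). In Slc7a11 it occurred on both strands, 66 and 47 bases before the start. The E-box CACGTG was found in 12 carriers, among them Slc5a1 and Slc6a3 (8.09%). These are matches of letters, and no binding was measured.

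Between WENRC and ENRI, the stem cell and enterocyte cultures of the same mice, 25 of the 90 carriers were lower in WENRC (9.74% of all genes tested) and 7 were higher (4.85% of all genes tested). Of all 90 carriers the median change was -0.08, beside -0.01 for all genes. Of the 25 that fell, 12 were on the list of apical carriers and 4 on that of basolateral carriers, and of the 7 that rose, 6 were on the list of carriers of growing cells. In all, 43 carriers were called in at least 1 of the 3 comparisons, beside 30.4% of all genes.

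Leaving RANKL out removed these calls. Fitted on the 4 ENRI and WENRC libraries alone, limma called 0 carriers and 0 of all 16563 genes, with 40 carriers below 0.05 before adjustment. The mouse as a block in these 4 libraries gave 3 higher and 6 lower, beside 124 of all 16563 genes called in either direction. The higher ones were Slc1a4, Slc1a5 and Slc7a5, and the lower ones Slc15a1, Slc5a11, Slc5a4a, Slc5a4b, Slc6a20a and Slc6a3. With the mouse as a block for ENRI and WENRC in the fit of 6 libraries, 12 were higher and 28 lower, among them all 32 called without it. That fit called 3545 of all 16563 genes. Without RANKL 1, RANKL 2 or WENRC 2 there were 0 calls (40, 40 and 35 carriers below 0.05 before adjustment), and without WENRC 1 there were 1 higher and 1 lower. Without ENRI 1 the count was 18 higher and 32 lower, and without ENRI 2 it was 13 higher and 26 lower. The authors' deposited table gave 6 higher and 28 lower by its own adjusted p-value, beside 3.3% and 9.24% of all genes tested. Calls over all genes also rose or fell with the library left out, so these counts describe the fits and not the carriers alone.

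Apical carriers of enterocytes formed the clearest group. Of 17 listed, 16 were tested, and 12 were lower in WENRC than in ENRI, none higher, with a median change of -2.27. In RANKL against ENRI 9 were lower and none higher (10.5% of all genes tested lower), with a median of -1.38. Against WENRC 4 were higher in RANKL and none lower (8.53% of all genes tested higher), with a median of 0.68. The summed enterocyte markers given above followed the same order of cultures, but not every marker did. Of the 12, 5 were higher in RANKL than in WENRC and 1 was lower, with a median of 0.16. The lower one was Cyp3a25 (-2.64, limma FDR 0.0147). Of 7 goblet cell markers 5 were lower in WENRC than in ENRI (median -2.10) and 4 higher in RANKL than in WENRC (median 2.38), and their sum was 13.67 and 13.63 in RANKL, 13.85 and 13.33 in ENRI and 11.87 and 10.85 in WENRC. The part of either list in these results was not tested. In these cultures, fewer cells of a type and less nascent RNA per cell cannot be told apart.

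**Figure D1:**
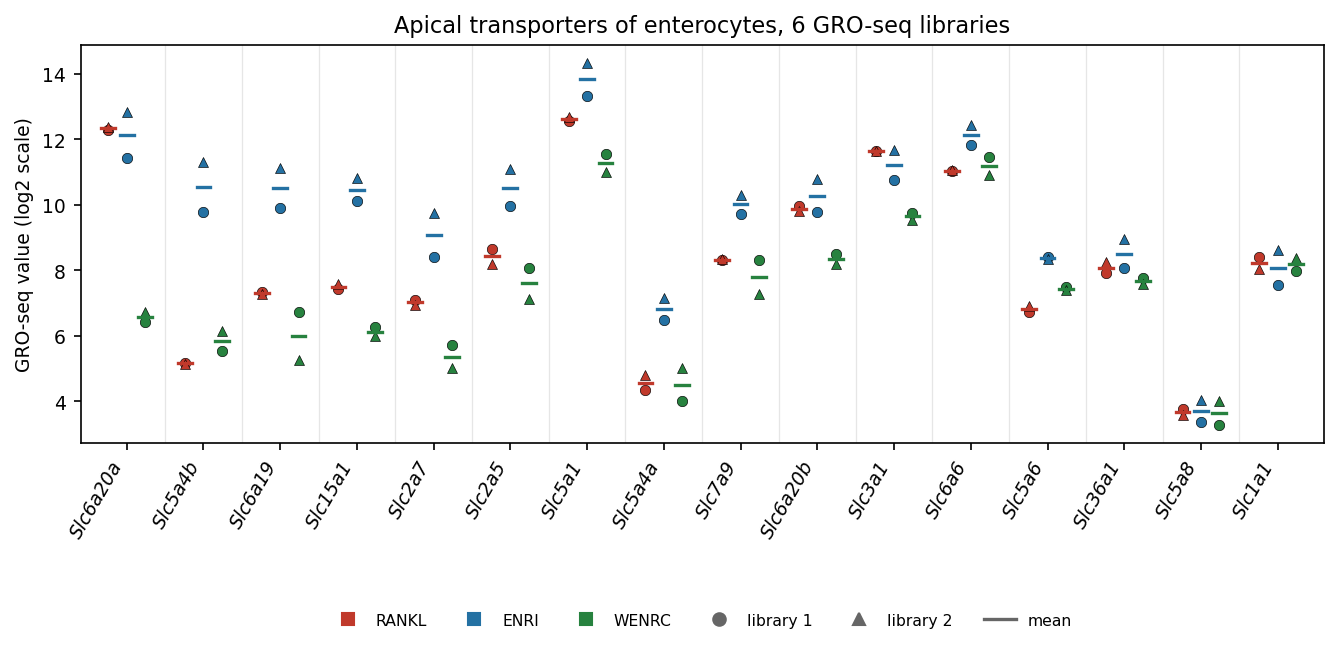
GRO-seq values (log2 scale, y axis) of the 16 tested apical carriers in the 6 libraries, ordered by their change between WENRC and ENRI; circles are library 1, triangles library 2 and bars the mean of 2. Slc6a20a is high in RANKL (12.30 and 12.37) and low in WENRC, whereas Slc5a4b is low in both RANKL (5.19 and 5.13) and WENRC.

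Slc6a20a, an apical carrier of proline and other imino acids (chromosome 9, 123546025 to 123587950, mm9), separated WENRC from the other cultures. It stood at 12.30 and 12.37 in RANKL, 11.44 and 12.84 in ENRI, and 6.42 and 6.73 in WENRC. RANKL lay within the range of ENRI, and both WENRC libraries were far below all others. The change was 5.76 (SE 0.43, limma FDR 0.00217) in RANKL over WENRC and -5.57 (SE 0.43, limma FDR 0.00624) in WENRC over ENRI, and 0.20 (SE 0.43, limma FDR 0.777) in RANKL over ENRI. Fitted on the 4 ENRI and WENRC libraries alone, the limma FDR of the second was 0.0535, and 0.035 with the mouse as a block in these 4.

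Its neighbour and paralogue Slc6a20b, whose start lies 4.342 kb beyond the end of Slc6a20a on the same strand, was also lowest in WENRC, with smaller differences. It stood at 9.96 and 9.80 in RANKL, 9.78 and 10.78 in ENRI, and 8.50 and 8.20 in WENRC. Both RANKL libraries were within the ENRI range and above WENRC, with changes of 1.53 (SE 0.33, limma FDR 0.0360) over WENRC and -0.40 (limma FDR 0.433) over ENRI. Reads that match both copies could have been split between them by the authors' counting.

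Slc5a4b, a member of the sodium-glucose cotransporter family (chromosome 10, 75521366 to 75573763, mm9), separated ENRI from the other cultures. It stood at 9.78 and 11.32 in ENRI, against 5.19 and 5.13 in RANKL and 5.55 and 6.14 in WENRC. Neither RANKL nor WENRC overlapped ENRI. The change was -5.39 (SE 0.50, limma FDR 0.00320) in RANKL over ENRI and -4.71 (SE 0.50, limma FDR 0.00913) in WENRC over ENRI. RANKL and WENRC differed by -0.69 (SE 0.50, limma FDR 0.418). Its neighbour Slc5a4a, 36.433 kb away on the other strand, had 6.49 and 7.16 in ENRI, 4.34 and 4.82 in RANKL and 4.0 and 5.02 in WENRC, and was lower than ENRI in both (limma FDR 0.0171 and 0.0220).

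Carriers of peptides and neutral amino acids followed ENRI, with RANKL in between. Slc15a1, the proton-coupled peptide carrier (chromosome 14, 121858843 to 121904476, mm9), stood at 10.12 and 10.81 in ENRI, 7.42 and 7.58 in RANKL and 6.27 and 5.99 in WENRC, with no overlap between any of the cultures. By limma on the 6 libraries it was the only carrier called both lower in RANKL than in ENRI (-2.97, SE 0.26, limma FDR 0.00286) and higher in RANKL than in WENRC (1.37, limma FDR 0.0252). The authors' deposited table also had Slc2a7, Slc5a1 and Slc43a2 past its threshold in both directions. Slc6a19, the main apical carrier of neutral amino acids (chromosome 13, 73818605 to 73838143, mm9), stood at 9.92 and 11.12 in ENRI, 7.35 and 7.27 in RANKL and 6.74 and 5.27 in WENRC. Against ENRI its change was -3.21 (SE 0.57, limma FDR 0.0153) in RANKL and -4.51 (SE 0.57, limma FDR 0.0112) in WENRC, while RANKL over WENRC was 1.30 (limma FDR 0.192). The opposite-strand gene Slc6a19os overlaps it, and without the strand of the reads the pair cannot be told apart.

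Glucose and fructose carriers differed in the same direction with smaller steps. Slc5a1, the sodium-coupled glucose carrier of the brush border (chromosome 5, 33446868 to 33505348, mm9), stood at 13.34 and 14.34 in ENRI, 12.57 and 12.67 in RANKL and 11.55 and 11.01 in WENRC. All 3 cultures were apart, and limma on the 6 libraries called WENRC over ENRI (-2.55, SE 0.36, limma FDR 0.0137). RANKL stood at -1.22 against ENRI (limma FDR 0.0623) and 1.34 against WENRC (limma FDR 0.0663). The authors' deposited table had Slc5a1 past its threshold in both of these, with adjusted p-values of 0.00252 and 9.93e-15. Slc2a5, the fructose carrier, stood at 9.98 and 11.08 in ENRI, 8.66 and 8.21 in RANKL and 8.08 and 7.13 in WENRC. Slc2a7, a related hexose carrier 4.804 kb away, stood at 8.41 and 9.76 in ENRI, 7.09 and 6.96 in RANKL and 5.71 and 5.01 in WENRC. Both were highest in ENRI without overlap and lowest in WENRC. Their changes against ENRI were -2.09 and -2.06 in RANKL (limma FDR 0.0271 and 0.0296), and -2.92 and -3.73 in WENRC (limma FDR 0.0166 and 0.0111).

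The heavy and light subunits of the apical cystine and dibasic amino acid carrier were called in different comparisons with RANKL. Slc3a1, the heavy subunit, stood at 11.65 and 11.66 in RANKL, 10.77 and 11.68 in ENRI and 9.76 and 9.55 in WENRC. RANKL was at the top of the ENRI range, with changes of 1.99 over WENRC (SE 0.30, limma FDR 0.0129) and 0.42 over ENRI (limma FDR 0.353). Slc7a9, the light subunit, stood at 8.32 and 8.33 in RANKL, 9.73 and 10.32 in ENRI and 8.31 and 7.29 in WENRC. Here RANKL was just above the higher WENRC library, with a change of -1.69 against ENRI (SE 0.36, limma FDR 0.0254). The difference between the subunits' changes was not tested. Slc3a1 overlaps Prepl on the other strand.

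Of the other apical carriers, Slc5a6, which takes up biotin and pantothenate, changed by -1.55 in RANKL (SE 0.16, limma FDR 0.00379) and by -0.94 in WENRC (limma FDR 0.0198) against ENRI. It overlaps Atraid on the other strand. Slc6a6, the taurine carrier, fell by 1.10 in RANKL against ENRI (limma FDR 0.0361). Not called in any comparison were Slc36a1, a proton-coupled amino acid carrier, Slc1a1, a glutamate carrier with RANKL at 8.42 and 8.05 and ENRI at 7.54 and 8.63, and Slc5a8, a monocarboxylate carrier whose values stayed between 3.29 and 4.04.

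The 2 ENRI libraries stood apart in these genes. Of the 25 carriers lower in WENRC than in ENRI, 24 were higher in ENRI 2 than in ENRI 1, with a median difference of 0.91, beside -0.02 for all genes tested. The summed enterocyte markers also differed, at 15.85 in ENRI 1 and 16.65 in ENRI 2, and the part of this in the results was not tested. The 2 ENRI libraries come from different mice and carry different dates, which cannot be told apart.

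Basolateral carriers moved less as a group. Of 11 listed, 9 were tested. In WENRC against ENRI 4 were lower and none higher, with a median of -1.20. In RANKL against ENRI 3 were lower (median -0.43), and against WENRC 1 was higher and 2 lower (3.62% of all genes tested lower; median -0.24). Slc2a2, the carrier for glucose, galactose and fructose exit (chromosome 3, 28596825 to 28627282, mm9), stood at 10.94 and 11.00 in RANKL, 10.87 and 11.88 in ENRI and 9.05 and 8.33 in WENRC. It was higher in RANKL than in WENRC by 2.28 (SE 0.38, limma FDR 0.0170), and WENRC over ENRI was -2.69 (SE 0.38, limma FDR 0.0136).

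Slc16a10, an exit carrier for aromatic amino acids (chromosome 10, 39753341 to 39862060, mm9), was the only one of the 25 called lower in RANKL than in both other cultures. It stood at 7.41 and 6.99 in RANKL, 10.34 and 11.14 in ENRI and 9.63 and 9.01 in WENRC. No culture overlapped another. The change in RANKL was -3.54 against ENRI (SE 0.34, limma FDR 0.00343) and -2.12 against WENRC (SE 0.34, limma FDR 0.0153). WENRC over ENRI was -1.42 (limma FDR 0.0435, and 0.11 with these 4 libraries alone).

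Slc7a7, the light chain that exports cationic amino acids, stood at 11.04 and 11.54 in ENRI, 9.82 and 9.91 in RANKL and 10.21 and 9.97 in WENRC. RANKL and WENRC lay close together below ENRI, with changes of -1.43 (SE 0.20, limma FDR 0.00848) and -1.20 (limma FDR 0.0193). It overlaps Oxa1l on the other strand. Slc7a8, a light chain for neutral amino acids, fell in RANKL by 2.83 (SE 0.62, limma FDR 0.0277), with ENRI libraries at 7.97 and 10.04. Slc43a2, a carrier for branched-chain amino acids and phenylalanine, was called only for WENRC over ENRI (-1.81, limma FDR 0.0266), and Slc43a1 only for RANKL over WENRC (-0.93, limma FDR 0.0286). The shared heavy chain Slc3a2, at 9.94 and 9.92 in RANKL, 10.09 and 10.64 in ENRI and 10.35 and 10.07 in WENRC, was not called, nor were Slc16a1, a lactate carrier, and Slc7a6.

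**Figure D2:**
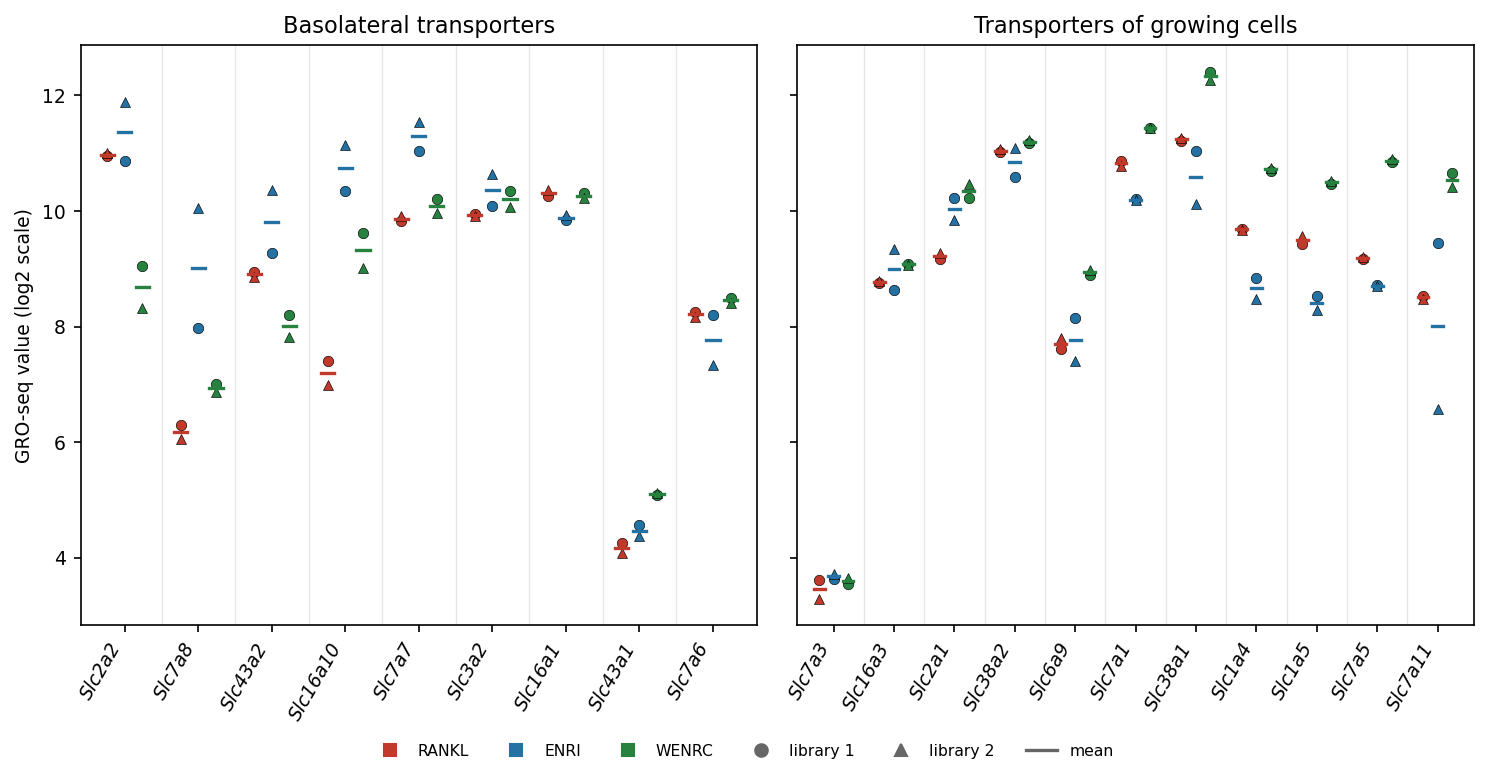
GRO-seq values (log2 scale, y axis) of the 9 tested basolateral carriers (left) and the 11 tested carriers of growing cells (right) in the 6 libraries, with symbols as in the plot of apical carriers. Slc16a10 is lowest in RANKL at 7.41 and 6.99, and Slc7a5 is highest in WENRC at 10.85 and 10.89.

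Carriers of growing cells ran the other way. Of 12 listed, 11 were tested, and 6 were higher in WENRC than in ENRI and none lower, with a median of 1.24. Against WENRC, RANKL had 6 lower and none higher (median -1.04), and against ENRI it had 4 higher and 1 lower (10.4% of all genes tested higher; median 0.48). In 4 of them (Slc7a5, Slc1a4, Slc1a5 and Slc7a1) RANKL was called between the other cultures. The summed stem cell markers had the same order, with 14.42 and 14.48 in RANKL, 13.10 and 12.46 in ENRI and 14.58 and 14.69 in WENRC. Single markers differed from the sum, with Lgr5 in RANKL at 8.75 and 8.84, near ENRI and below WENRC. The part of these markers in the result was not tested.

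Slc7a5, the large neutral amino acid light chain that imports leucine (chromosome 8, 124405046 to 124431586, mm9), stood at 10.85 and 10.89 in WENRC, 9.18 and 9.20 in RANKL and 8.72 and 8.69 in ENRI. The cultures did not overlap. It was 2.17 higher in WENRC than in ENRI (SE 0.12, limma FDR 0.00465), and RANKL over WENRC was -1.69 (SE 0.12, limma FDR 0.00184). RANKL over ENRI was 0.48 (limma FDR 0.0395, and 0.0892 with these 4 libraries alone).

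Slc1a5, the glutamine carrier, and Slc1a4, the carrier for serine and other small neutral amino acids, kept the same order. Slc1a5 stood at 10.47 and 10.52 in WENRC, 9.43 and 9.57 in RANKL and 8.53 and 8.30 in ENRI. Slc1a4 stood at 10.70 and 10.74 in WENRC, 9.69 and 9.67 in RANKL and 8.85 and 8.48 in ENRI. In WENRC they were higher than in ENRI by 2.08 (SE 0.14, limma FDR 0.00572) and 2.06 (SE 0.16, limma FDR 0.00624). RANKL was in between for both, called against each of the other cultures.

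Slc7a1, the cationic amino acid carrier, kept that order too, with 11.44 and 11.43 in WENRC, 10.87 and 10.78 in RANKL and 10.21 and 10.19 in ENRI (limma FDR 0.0084 for WENRC over ENRI). Slc38a1, a sodium-coupled glutamine carrier, was 1.76 higher in WENRC than in ENRI (SE 0.29, limma FDR 0.0191), and Slc6a9, a glycine carrier, 1.17 higher (limma FDR 0.0378). Slc2a1, the facilitative glucose carrier of dividing and anaerobic cells, went with none of these. It was lower in RANKL, at 9.18 and 9.28, than in ENRI, at 10.23 and 9.84, and WENRC, at 10.22 and 10.47 (-0.81 and -1.12, limma FDR 0.0292 and 0.0161). Slc7a11, the cystine and glutamate exchanger, was not called by limma on the 6 libraries, with 8.54 and 8.48 in RANKL, 9.45 and 6.58 in ENRI and 10.66 and 10.41 in WENRC. RANKL and WENRC did not overlap, and Slc7a11 was called lower in RANKL with these 4 libraries alone (-2.03, limma FDR 6.78e-05) and in the authors' deposited table. With the mouse as a block in the fit of 6 libraries it was called for WENRC over ENRI (limma FDR 0.0344). Myc and Atf4, the genes of factors that regulate some of these carriers, were not called in any comparison.

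**Figure D3:**
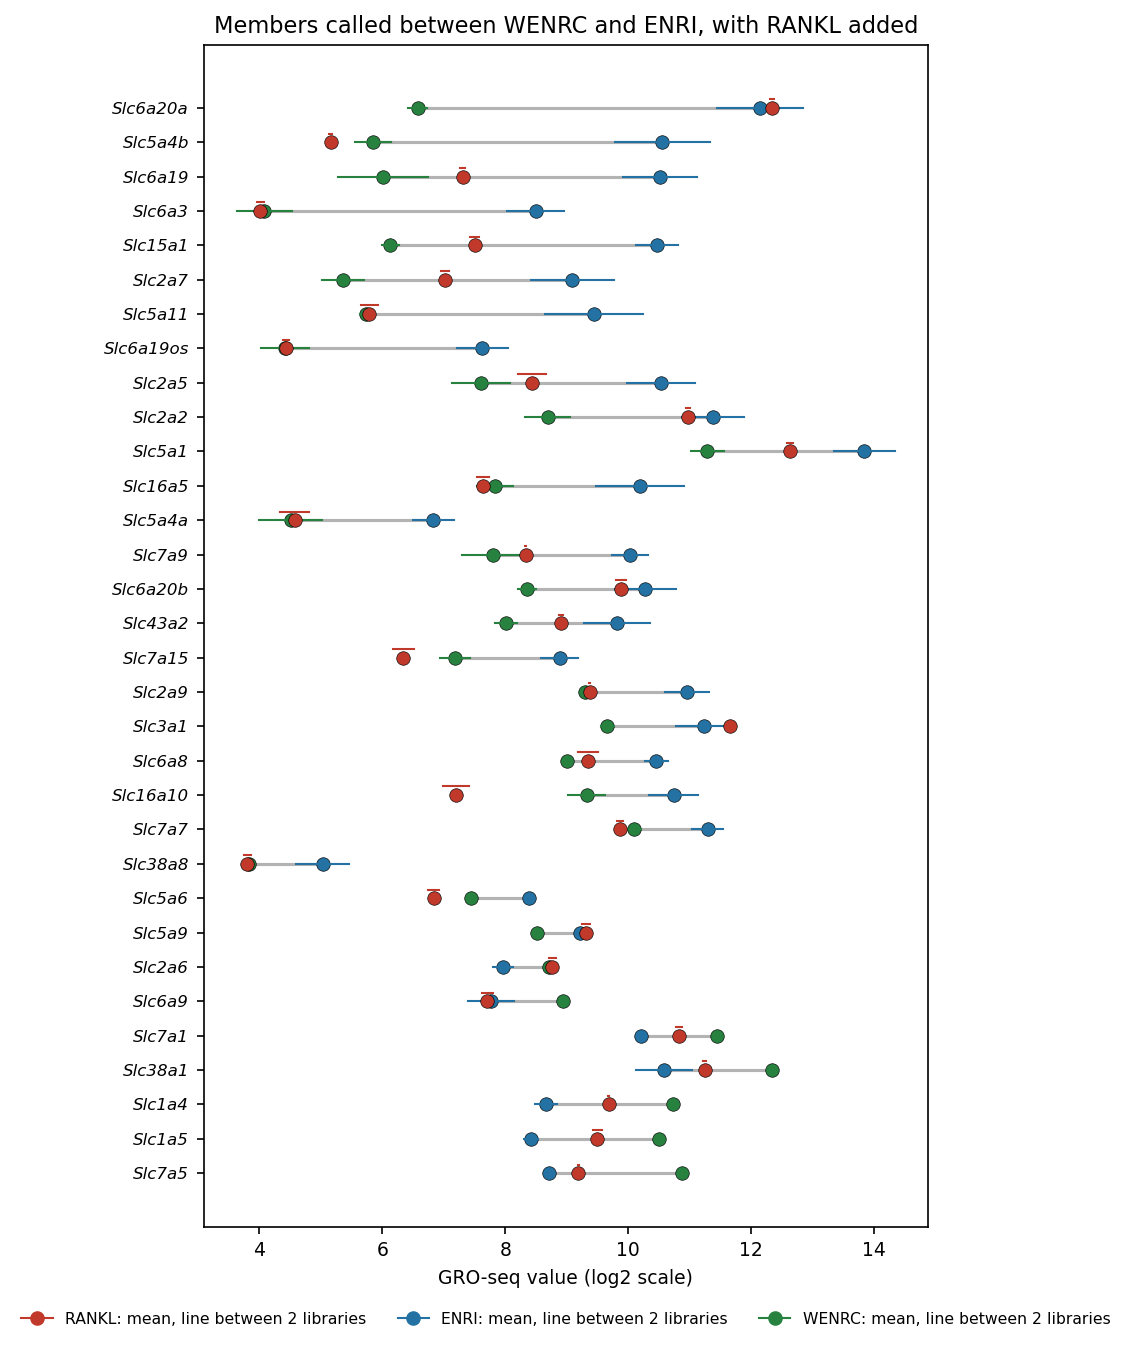
Means (circles) and the line between the 2 libraries for the 32 carriers called between WENRC and ENRI (25 lower above, 7 higher below), on the log2 scale (x axis), with RANKL added in red and its line drawn just above. RANKL sits near ENRI for Slc6a20a and Slc3a1 and near WENRC for Slc5a4b and Slc6a3.

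The 25 carriers lower in WENRC than in ENRI split by where RANKL stood. In 18 of them RANKL was called lower than ENRI, in 6 it was called higher than WENRC, with Slc15a1 counted in both, and 2 (Slc5a1 and Slc43a2) were called in neither by limma on the 6 libraries. The authors' deposited table called these 2 in both comparisons, and the fit of the 4 RANKL and WENRC libraries with a replicate block called them between RANKL and WENRC. That block pairs RANKL with the mice by number alone, a pairing that no label gives. The RANKL-higher carriers other than Slc15a1 were Slc6a20a, Slc6a20b, Slc3a1, Slc2a2 and Slc5a9, a mannose and glucose carrier that rose by 0.80 over WENRC (SE 0.13, limma FDR 0.0183). These comparisons share their control libraries, so the counts are not independent of each other. The same split over all genes lower in WENRC than in ENRI was not counted, so it is not shown to be particular to the carriers. Over the 6 libraries, the carriers most like Slc5a4b were Slc6a3 (Pearson's r of 0.992), Slc5a11 (0.988), Slc2a9 (0.984), Slc7a7 (0.982) and Slc6a19os (0.969). Those most like Slc6a20a were Slc5a9 (0.990), Slc3a1 (0.970), Slc2a2 (0.962), Slc6a20b (0.949) and Slc6a4 (0.867). These are descriptions over 6 libraries of 3 cultures.

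Slc6a3, the dopamine carrier of neurons (chromosome 13, 73674195 to 73716120, mm9), shared the pattern of Slc5a4b. It stood at 8.03 and 8.95 in ENRI, 4.08 and 3.96 in RANKL and 3.63 and 4.53 in WENRC. ENRI was above both other cultures without overlap. Against ENRI the change was -4.47 in RANKL (SE 0.41, limma FDR 0.00315) and -4.41 in WENRC (SE 0.41, limma FDR 0.00798). Slc5a11, a myo-inositol carrier, changed by -3.65 in RANKL and -3.70 in WENRC against ENRI (limma FDR 0.00757 and 0.0127), and Slc2a9, a urate carrier, by -1.57 and -1.65 (limma FDR 0.0105 and 0.0143). Slc16a5 and Slc6a8, the creatine carrier, were also lower than ENRI in both cultures. Slc6a8, which is X-linked, stood at 10.27 and 10.64 in ENRI, 9.18 and 9.50 in RANKL and 9.07 and 8.94 in WENRC, so the 2 mice differed less than the cultures.

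Slc6a3 lies in a run of carriers on chromosome 13, with Slc6a18 and Slc6a19 beyond the unrelated genes Clptm1l and Tert. Slc6a18 is 3.134 kb from Slc6a19 and stayed between 3.42 and 4.24 in all libraries, uncalled in every comparison. Clptm1l and Tert, between Slc6a3 and Slc6a18, were also uncalled in every comparison, with RANKL over ENRI at -0.58 and -0.13. Both were picked for display with their values known. Clptm1l stood at 8.81 and 8.95 in ENRI, 8.34 and 8.27 in RANKL and 8.83 and 8.33 in WENRC, with ENRI above RANKL without overlap (limma FDR 0.0877).

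**Figure D4:**
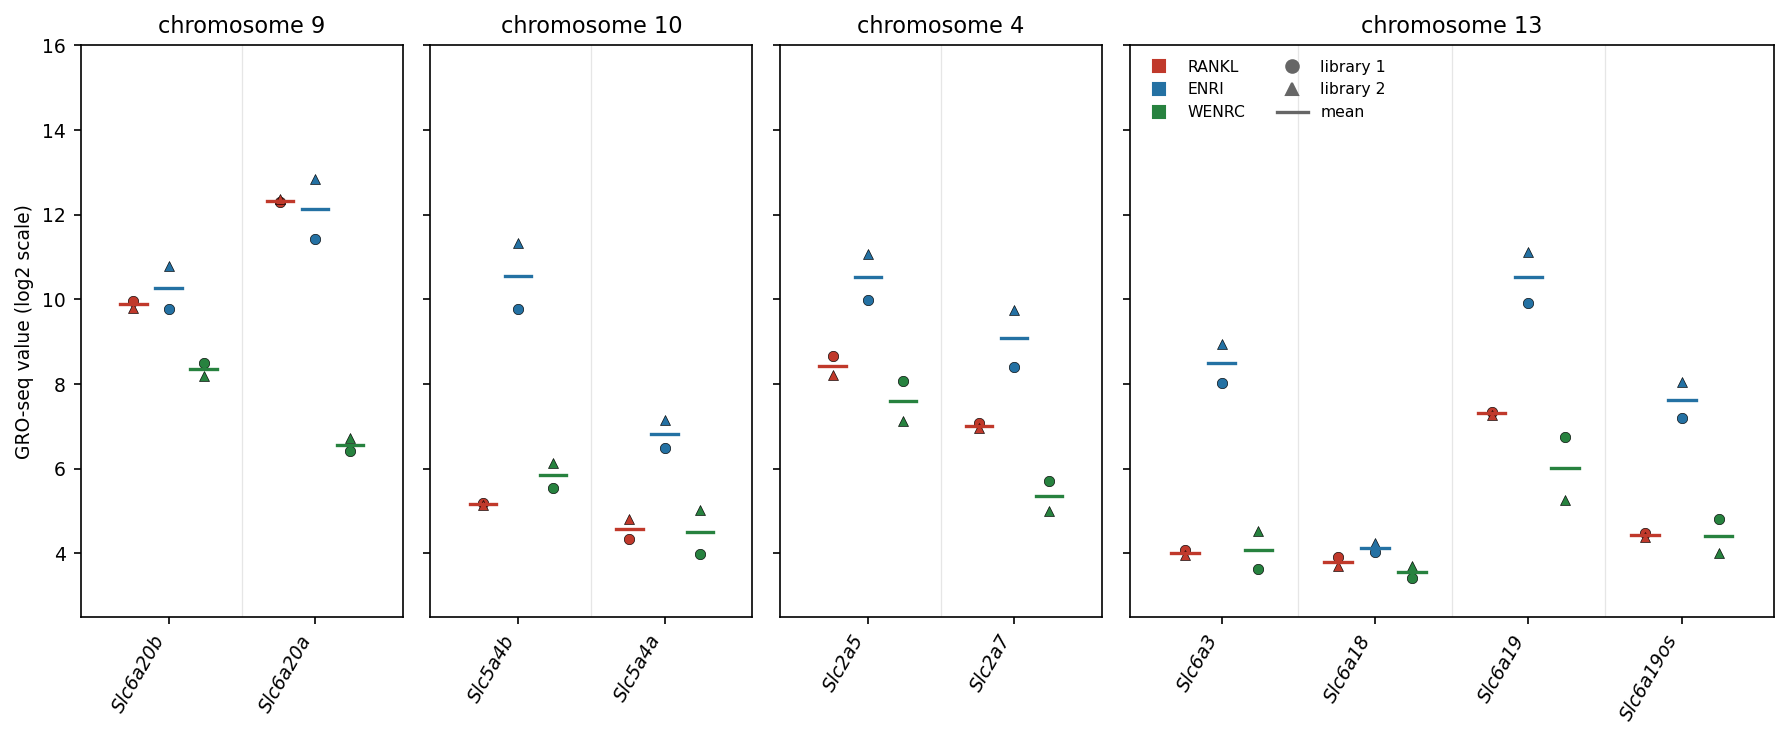
GRO-seq values (log2 scale, y axis) of neighbouring carriers on chromosomes 9, 10, 4 and 13 in the 6 libraries; circles are library 1, triangles library 2 and bars the mean. Slc6a18 stays between 3.42 and 4.24 beside Slc6a19, which reaches 11.12 in ENRI 2.

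Called higher in RANKL than in both other cultures were 5 carriers, Slc1a3, Slc6a7, Slc15a3, Slc38a9 and Slc38a10. Of all genes tested, 10.4% were higher than ENRI and 8.53% higher than WENRC. The share higher than both was not counted, so this number is not shown to be particular to the carriers. Slc1a3, a glutamate carrier known from astrocytes (chromosome 15, 8584124 to 8660807, mm9), stood at 9.61 and 9.74 in RANKL, 3.76 and 5.32 in ENRI and 4.99 and 6.55 in WENRC. It was 5.13 higher than ENRI (SE 0.66, limma FDR 0.00632) and 3.90 higher than WENRC (SE 0.66, limma FDR 0.0179). Slc6a7, a proline carrier known from the brain, stood at 9.38 and 9.48 in RANKL, 7.48 and 7.02 in ENRI and 7.80 and 7.30 in WENRC (2.18 and 1.88 higher, limma FDR 0.00451 and 0.00874). Slc15a3, a lysosomal carrier of peptides and histidine known from immune cells, stood at 7.34 and 7.39 in RANKL, 5.45 and 4.76 in ENRI and 5.59 and 5.89 in WENRC. In all 3 of these carriers RANKL lay above every other library. Slc15a3 was higher by 2.26 and 1.63 (limma FDR 0.00569 and 0.0187), and overlaps Tmem132a on the other strand. Slc38a9, the lysosomal arginine sensor, was higher by 0.68 and 0.66 (limma FDR 0.0297 and 0.0456), and Slc38a10 by 0.65 and 0.73 (limma FDR 0.0423 and 0.0436). The 11 markers of leukocytes, endothelium and fibroblasts had a summed value of 6.81 and 6.83 in RANKL, 6.52 and 6.80 in ENRI and 6.49 and 6.79 in WENRC. Of these markers 4 were tested and none was called in any comparison, and the others stayed below the filter. Pecam1 of endothelium stood at 5.27 and 5.37 in RANKL and at 4.54 to 4.96 elsewhere (limma FDR 0.0732 over ENRI and 0.14 over WENRC). Lyz2 was also highest in RANKL, while Cd79a was highest in WENRC and Ptprc in ENRI 2. The part of such cells in the result was not tested.

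Of the 14 carriers of neurotransmitters, 6 were tested, and 3 were called in RANKL against ENRI, beside 10.4% of all genes tested higher and 10.5% lower. These were Slc1a3 and Slc6a7, higher, and Slc6a3, lower. Slc6a4, the serotonin carrier, was not called by limma on the 6 libraries, with 8.04 and 8.49 in RANKL, 7.44 and 8.92 in ENRI and 7.16 and 6.42 in WENRC. WENRC did not overlap RANKL or ENRI. The authors' deposited table had Slc6a4 at 1.85 in RANKL over WENRC and -1.99 in WENRC over ENRI (adjusted p-values of 3.87e-05 and 0.0366). The fit of the 4 RANKL and WENRC libraries with a replicate block also called it between these cultures. In that fit the RANKL libraries were paired by number alone. The remaining 8 stayed below the filter.

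Over all carriers, 10 were higher and 23 lower in RANKL than in ENRI, beside 10.4% and 10.5% of all genes tested. The medians were -0.04 for the carriers and -0.00 for all genes. With only the 4 libraries the count was 6 higher and 17 lower, and without RANKL 1 or RANKL 2 it was 0 (33 and 31 below 0.05 before adjustment). Without ENRI 1 it was 17 higher and 33 lower, without ENRI 2 it was 16 and 27, and without either WENRC library 6 and 17. In the 4 libraries with the replicate number as a block, it was 5 higher and 19 lower, beside 1423 of all 16563 genes called in either direction. With the 4 libraries and no block, 1925 of all genes were called. Calls over all genes also rose or fell with the library left out.

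Against WENRC, 11 carriers were higher and 8 lower in RANKL, beside 8.53% and 3.62% of all genes tested, with medians of -0.03 for the carriers and -0.01 for all genes. With only the 4 libraries, 18 were higher and 17 lower, beside 5194 of all 16563 genes called in either direction (2012 in the fit of 6 libraries). The authors' deposited table gave 18 and 14, beside 16.7% and 11.1% of all genes tested. Without RANKL 1 or RANKL 2 the count was 0 (24 and 25 below 0.05 before adjustment). Without WENRC 1 it was 2 higher and 1 lower, without WENRC 2 it was 1 and 1, and without either ENRI library 18 and 17. Calls over all genes also rose or fell with the library left out, so these counts describe the fits and not the carriers alone. Of all calls in this comparison 70.2% were higher in RANKL, and 53.3% after recentring on upper quartiles, which moved the median of all genes to -0.12. Between WENRC and ENRI the share of higher calls moved from 33.2% to 54.1% in the same way. No call of a carrier named here changed its sign under any scaling.

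Per length, the leading tested carriers in ENRI were Slc5a1 at 7.97 (log2 of the value per kb of gene), Slc6a8 at 7.23, Slc38a2 at 7.22 and Slc6a20a at 6.75. In RANKL they were Slc38a2 at 7.42, Slc6a20a at 6.95 and Slc5a1 at 6.75. WENRC was led by Slc38a2 at 7.58, a glutamine carrier that was not called in any comparison, and there Slc6a20a was at 1.18. These levels depend on the regularized scale and on gene length, and are given as an order only.

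Genes that work with the carriers were followed in a separate list of 34 names, of which 33 were found and tested. In WENRC against ENRI 14 were lower and none higher (median -1.28), in RANKL against ENRI 8 were lower and none higher (median -0.55), and in RANKL against WENRC 9 were higher and 1 lower (median 0.46). Of all genes tested, 9.74% were lower in the first comparison, 10.5% lower in the second, and 8.53% higher and 3.62% lower in the third.

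Brush border hydrolases release the sugars and amino acids that the carriers take up. Mme stood at 10.33 and 10.33 in RANKL, 12.03 and 12.86 in ENRI and 8.0 and 7.0 in WENRC, and was called in all 3 comparisons. Enpep, Treh and Sis were higher in RANKL than in WENRC by 2.95, 2.17 and 2.42 (limma FDR 0.0132, 0.0235 and 0.0373). They were not called against ENRI by limma on the 6 libraries. The authors' deposited table had all 3 lower in RANKL than in ENRI (-1.28, -1.57 and -1.40, with adjusted p-values of 0.0469, 0.00903 and 0.00256). Dpp4 had 7.29 and 7.43 in RANKL, below ENRI at 9.73 and 11.09 and WENRC at 9.07 and 9.19 (limma FDR 0.00752 and 0.0458). By limma on the 6 libraries, Anpep was called only in RANKL over WENRC (1.51, limma FDR 0.0461). Mgam was called there only in WENRC over ENRI (-2.06, limma FDR 0.0127), and Lct only in RANKL over ENRI (-0.96, limma FDR 0.0202). The authors' deposited table also had Anpep past its threshold in WENRC over ENRI (-1.64). It had Mgam past it in RANKL against ENRI (-1.12) and against WENRC (1.19).

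Genes of sugar metabolism and scaffolding were mixed. Khk, which phosphorylates fructose, changed by -2.09 in RANKL and -2.23 in WENRC against ENRI (limma FDR 0.0157 and 0.0191). G6pc and Fbp1 of gluconeogenesis were higher in RANKL than in WENRC by 2.86 and 1.92 (limma FDR 0.0155 and 0.0160). Slc9a3r1 and Pdzk1, scaffold proteins of apical carriers, were both lower in WENRC than in ENRI (limma FDR 0.0103 and 0.0205). By limma on the 6 libraries Pdzk1 alone was higher in RANKL than in WENRC, while the authors' deposited table had both past its threshold. Of the transcription factors, Hnf4g stood at 13.09 and 13.11 in RANKL, 12.85 and 13.14 in ENRI and 11.54 and 11.08 in WENRC, and was 1.79 higher in RANKL than in WENRC (SE 0.21, limma FDR 0.00751). Hnf4a and Cdx2 were not called in any comparison by limma on the 6 libraries. In the authors' deposited table Hnf4a was 0.89 higher in RANKL than in WENRC (adjusted p-value of 8.25e-14).

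The authors' H3K27me3 regions, called in each culture with the other as control on mm9, were joined by gene name, with no replicate check since RANKL was pooled and WENRC was 1 library. Within 5 kb of a start site, 40 of 111 carriers had a RANKL-higher region (36.04%, beside 19.1% of all genes listed), and 12 had a WENRC-higher region (10.81%, beside 5.44%). Among the 90 tested carriers these were 26.7% and 11.1%, beside 18.0% and 5.01% of genes tested. Within 1 kb, 21 carriers had a RANKL-higher region and 1 a WENRC-higher region, beside 10.5% and 1.24% of all genes listed. At an authors' fold of at least 4 these were 3 and 4 carriers (2.7% and 3.6%), beside 3.04% and 1.37% of all genes, so the RANKL-higher share was then near the background. At any distance they were 46 and 33 (41.44% and 29.73%), beside 33.7% and 24.0%. The carriers below the filter held much of the first set, with 16 of 21 having a RANKL-higher region within 5 kb, beside 19.1% of all genes listed. The share of all genes below the filter with such a region was not counted. Carriers on the X chromosome had such a region in 4 of 5 cases, beside 45.5% of X-linked genes, and autosomal carriers in 36 of 106, beside 17.9%. Carriers with regions of both kinds were Slc2a13, Slc6a21, Slc6a4 and Slc7a2. The authors' folds ran from 2.02 to 6.66 in the RANKL-higher regions within 5 kb of a carrier's start, with a median of 2.69, and the median of the WENRC-higher regions was 3.12.

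The WENRC-higher region at Slc6a20a covered chr9:123583784-123589681 (mm9), from 1731 bases before to 4166 bases after the start site. Its 5897 bases held 42 RANKL tags against 375.4 scaled WENRC tags, an authors' fold of 8.94. It was the longest of the 1587 WENRC-higher regions within 5 kb of a start site and the 42nd by fold. This is the gene whose nascent transcription stood at 12.34 ± 0.05 in RANKL and 6.57 ± 0.22 in WENRC (SD, n = 2).

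Slc6a20b next to it had 3 WENRC-higher regions, with folds of 4.28, 2.62 and 4.80, the last across its start site at chr9:123541263-123542376. Of the other WENRC-higher carriers, Slc1a3 was higher in RANKL by GRO-seq and had a region of fold 3.22, with 7 RANKL tags against 22.5 scaled WENRC tags. The 7 tested carriers left in that set were not called between RANKL and WENRC by limma on the 6 libraries. The authors' deposited table had Slc6a4 and Slc16a9 of these past its threshold, both higher in RANKL. None of the 10 tested was called lower in RANKL, beside 3.62% of all genes tested, so this count is near the background. Slc6a18, with 2 regions and a largest fold of 5.04, was at 3.91 and 3.70 in RANKL and 3.42 and 3.71 in WENRC.

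In the RANKL-higher set, 2 tested carriers were higher in RANKL by GRO-seq (Slc15a1 and Slc15a3), 3 were lower (Slc16a10, Slc43a1 and Slc6a9) and 19 were not called. Of all genes tested 8.53% were higher and 3.62% lower, so the first count is near the background. Slc16a10 had a region at chr10:39860413-39862058 (mm9) that covered 1645 bases from the start site into the gene, with 74 RANKL tags against 12.6 scaled WENRC tags and an authors' fold of 5.87. Its nascent transcription was 7.20 ± 0.30 in RANKL and 9.32 ± 0.43 in WENRC (SD, n = 2). Slc6a9, with 2 regions and a largest fold of 3.37, stood at 7.62 and 7.79 in RANKL and 8.89 and 8.98 in WENRC. Slc15a1 went the other way from Slc16a10, with a region of fold 2.17 and a higher value in RANKL. Slc43a3, whose fold of 6.66 was the largest of this set within 5 kb, rested on 18 RANKL tags against 2.7 and was below the GRO-seq filter.

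**Figure D5:**
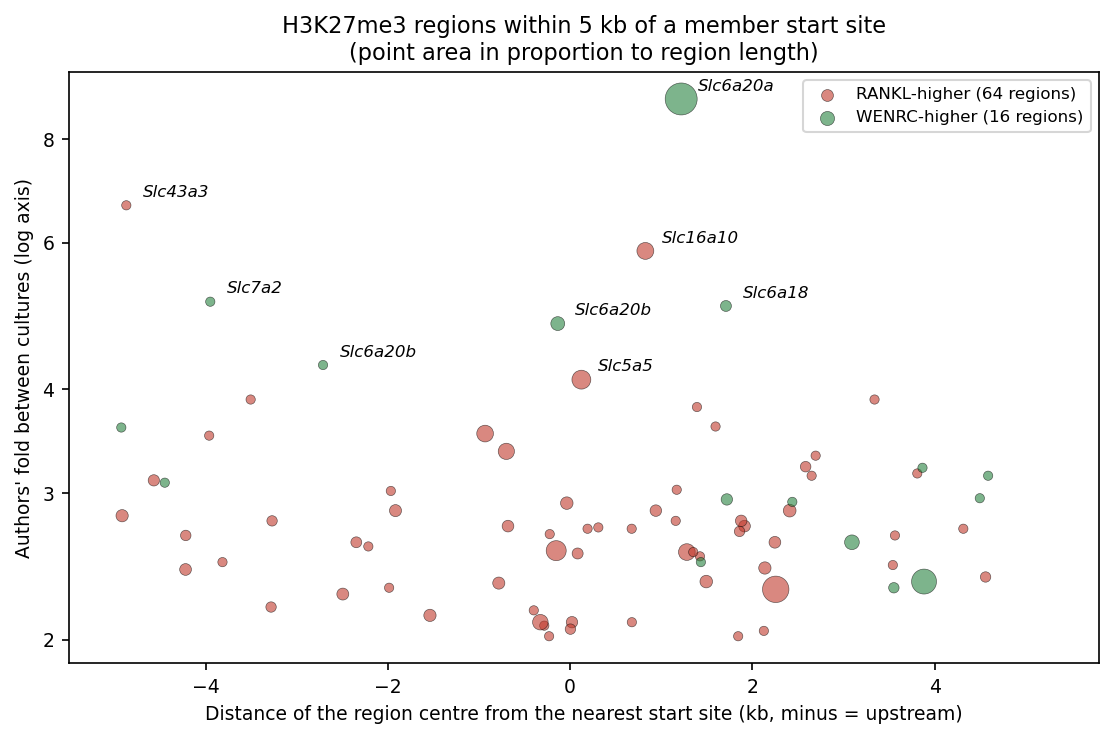
Authors' fold of H3K27me3 between the cultures (y axis, log axis) against the distance of the region's centre from the start site (x axis, kb) for 64 RANKL-higher and 16 WENRC-higher regions of carriers; point area is in proportion to region length. The Slc6a20a region stands at a fold of 8.94 and is the longest in the plot at 5897 bases.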

How the data were processed

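GRO-seq values were used as deposited, on the authors' log2 scale. Per the file headers, reads were summed over whole RefSeq genes of mm9 with HOMER and compared for all pairs of cultures. Bowtie2 2.3.4.1, HOMER and DESeq2 are named in the submitters' processing notes. Read filters and strand handling are not given in the sources used here, and the regularized shape of the values was inferred from them. GRO-seq depth is unknown, so no interval that needs it is given. Per the file headers, RANKL reads combine a repeat sequencing, so batch and RANKL culture cannot be told apart.

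limma 3.58.1 (R 4.3.3) with a variance trend fitted 3 culture means to 6 libraries without a pseudocount, as planned for log2 values, on 16563 genes with at least 2 libraries at log2 of 10 or more. P-values were two-sided with Benjamini-Hochberg adjustment over all genes, called at FDR under 0.05. Of the deposited table, the authors' own log2 changes and adjusted p-values served as an alternative. On simulated data of 16563 genes, changes of 2 were recovered in 85.1%, 92.5% and 85.1% of cases for RANKL over ENRI, RANKL over WENRC and WENRC over ENRI. False calls were 0 of 132, 0 of 130 and 9 of 144. The simulation drew normal noise with the same spread for all genes of a culture, without pairing by mouse, and changed few genes. In the real data the spread differs between genes, so these rates are a rough guide only.

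Mouse numbers pair ENRI with WENRC, per the labels (r of 0.414 between their deviations across genes). The labels give no mouse for the RANKL numbers (r of -0.205 and -0.323 with ENRI and WENRC). These values do not show whether the RANKL libraries came from separate animals. Replicate blocks that include RANKL pair its libraries by number alone. Xist stood at 11.94 in RANKL 1, against 4.52 in ENRI 1 and 5.42 in WENRC 1. H3K27me3 tags are deposited counts for pooled RANKL, and a signal scaled by 0.9 by the authors for WENRC, per the file headers. The fold is the authors' ratio of tags.

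Members and lists were chosen with earlier results of these data known. Genes were named by rule: tested apical and basolateral carriers, the 10 largest called changes per comparison without overlap between libraries, carriers with H3K27me3 near the start that were called between RANKL and WENRC, called growth carriers, called partner genes, and the 5 carriers most correlated with Slc5a4b and with Slc6a20a. Other carriers were named after their values were seen, and some named genes are not reported here. Of the marker lists, Paneth genes had 3 of 6 higher in RANKL than in ENRI, tuft genes 3 of 5 (Il25 at 0 in all libraries), enteroendocrine genes 1 of 7 and goblet genes 1 of 7. Alternatives covered scaling, filters, the libraries fitted, replicate and mouse blocks, the variance trend, leaving out each library, and the distance and fold of H3K27me3 regions. Motif letters were searched in RefSeq promoters, for 81 carriers.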

Additional observations from a re-analysis of the deposited data

How the results depend on the processing

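Of 102 called changes of named genes, none changed sign under any alternative. Filters, blocks, the variance trend and the cultures fitted could not change a sign, since they left the differences of culture means unchanged. Leaving out 1 library could not do so where the libraries of the cultures compared did not overlap. Past the threshold stayed 100 with quantile normalization, 99 with upper quartile recentring, 97 with no filter, 90 with the replicate number as a block, 52 with only the 4 libraries compared, 63 with those and the replicate block, 102 with the mouse as a block for ENRI and WENRC (added after seeing the data), 100 by the authors' adjusted p-values, 102 without ENRI 1 or ENRI 2, 33 and 27 without WENRC 1 and WENRC 2, and 0 without either RANKL library. The cause was not tested.

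Counts of carriers moved as follows, and the GRO-seq calls over all genes moved with the settings too. For RANKL over ENRI, higher calls went from 10 to 6 with only the 4 libraries and 5 with the replicate block in those, and over the left-out libraries from 0 to 17, with lower calls from 0 to 33. For RANKL over WENRC, higher calls went from 11 to 18, 20 with the replicate block and 18 by the authors, and lower calls from 8 to 17, 16 and 14; leaving out libraries gave 0 to 18 and 0 to 17. For WENRC over ENRI, higher calls went from 7 to 0, to 3 with the replicate block and to 12 with the mouse as a replicate block in 6 libraries, and lower calls from 25 to 0 and 6; leaving out libraries gave 0 to 18 and 0 to 32. With a replicate block in all 6 libraries these calls were 5 higher and 22 lower. Carriers with a RANKL-higher H3K27me3 region numbered 3 at an authors' fold of at least 4 (2.7%, beside 3.04% of all genes, so the excess was gone) and 21 within 1 kb, and with a WENRC-higher region 4 and 1, and 33 at any distance (29.73%, beside 24.0%).

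With 2 libraries a culture, changes of 1 on the log2 scale were recovered in 13.4%, 3% and 17.9% of simulated cases, so small differences are not shown to be absent.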

Other observations

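Several carriers with roles outside the groups above were also called. Slc2a6, a lysosomal hexose carrier, stood at 8.82 and 8.71 in RANKL, 8.13 and 7.80 in ENRI and 8.76 and 8.66 in WENRC, and was higher than ENRI in both other cultures by 0.80 and 0.74 (limma FDR 0.0242 and 0.0386). Slc5a12, a lactate carrier, changed by -0.85 in RANKL against ENRI (limma FDR 0.0449). Slc7a15 changed by -2.54 in RANKL and by -1.70 in WENRC against ENRI (limma FDR 0.00459 and 0.0193). Slc38a8 changed by -1.23 and -1.20 (limma FDR 0.0363 and 0.0491), from 4.60 and 5.46 in ENRI. These carriers were named after their values were seen.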
